A study of Homo sapiens with 12 samples.

Results

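The NRF2 pathway and antioxidant genes described here are 36 genes picked by symbol: the transcription factor NRF2 (gene NFE2L2), its regulators KEAP1, MAFG and BACH1, and 32 genes known as NRF2 targets in human cells. They are 36 of the 58830 entries of the deposited table, and all 36 were expressed well enough to be among the 20456 genes tested. RNA-seq was done on A549, a human lung adenocarcinoma line that is known to carry mutant KEAP1, and on 1 edited derivative of it, Sm22mut, whose genotype label is "miR22/SNAI1 target site KO". The 4 groups of 3 libraries each were Sm22mut with TGFβ, WT with TGFβ, untreated Sm22mut and untreated WT. TGFβ, a cytokine that induces epithelial-mesenchymal transition, was given at 10 ng/mL, and all cells were sampled at day 5. All groups shared the A549 background and the RPMI-1640 medium with serum. Since only 1 derivative was sequenced, effects of the edit and of how the derivative was made cannot be told apart, and the labels do not say whether it is a clone. The study asked how loss of the miR-22 and SNAI1 link alters the epithelial state with and without TGFβ.

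NRF2 is a transcription factor that is held in the cytoplasm and marked for destruction by KEAP1, an adaptor of the CUL3 ubiquitin ligase that senses electrophiles. When KEAP1 is modified or mutated, NRF2 accumulates, pairs with a small MAF protein such as MAFG and binds antioxidant response elements beside genes for glutathione and thioredoxin systems, NADPH supply, iron handling and the reduction of carbonyls and quinones. BACH1, a heme-sensitive repressor, competes for the same elements. In lung adenocarcinoma with mutant KEAP1 these targets are known to be highly expressed without any added stress.

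The antioxidant response element was looked for in the promoters of the members because it is the sequence through which NRF2 acts. RefSeq promoters on GRCh38.p14, each running from 250 bases before to 50 bases after the start of the gene, were at hand for 27 of the 36 members. The core TGACNNNGC, searched on both strands, was present in 7 of these 27 (25.9%) and in 3702 of all 27305 promoters of the same 300-base length (13.6%). The 7 were CBR1, GCLM, GPX2, ME1, PGD, PIR and TXNRD1. The narrower TGACTCAGC, which contains the AP-1 site TGACTCA, was found in ME1 and PIR (7.41% of member promoters, against 0.564% of all promoters). TGACTCA itself was in ME1, PIR and OSGIN1 (11.1% against 4.92%). The promoters of 5 members that recur in the results are printed 5′ to 3′ in the direction of the gene, with matches to the core on either strand in capitals.
GPX2: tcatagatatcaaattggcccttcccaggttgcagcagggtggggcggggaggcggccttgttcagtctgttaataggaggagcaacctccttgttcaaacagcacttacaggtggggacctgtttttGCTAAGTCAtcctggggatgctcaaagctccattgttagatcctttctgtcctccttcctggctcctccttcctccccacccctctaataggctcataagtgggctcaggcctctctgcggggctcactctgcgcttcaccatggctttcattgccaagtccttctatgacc
TXNRD1: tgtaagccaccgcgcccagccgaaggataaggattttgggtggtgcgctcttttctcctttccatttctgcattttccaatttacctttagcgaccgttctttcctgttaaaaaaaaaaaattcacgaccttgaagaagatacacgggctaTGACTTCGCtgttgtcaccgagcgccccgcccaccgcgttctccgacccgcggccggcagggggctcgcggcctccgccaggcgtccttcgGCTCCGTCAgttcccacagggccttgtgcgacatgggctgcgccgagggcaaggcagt
GCLM: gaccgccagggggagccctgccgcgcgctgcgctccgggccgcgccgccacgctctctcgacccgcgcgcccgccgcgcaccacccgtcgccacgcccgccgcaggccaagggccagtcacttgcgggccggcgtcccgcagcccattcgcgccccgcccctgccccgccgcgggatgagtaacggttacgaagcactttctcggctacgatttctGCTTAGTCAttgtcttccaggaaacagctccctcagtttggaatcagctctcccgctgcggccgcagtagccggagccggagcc
ME1: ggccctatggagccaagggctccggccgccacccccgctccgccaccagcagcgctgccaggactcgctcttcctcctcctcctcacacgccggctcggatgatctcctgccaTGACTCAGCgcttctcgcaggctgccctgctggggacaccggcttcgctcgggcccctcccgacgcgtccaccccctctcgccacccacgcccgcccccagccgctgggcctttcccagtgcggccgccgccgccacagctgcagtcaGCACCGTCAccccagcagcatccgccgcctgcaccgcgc
PIR: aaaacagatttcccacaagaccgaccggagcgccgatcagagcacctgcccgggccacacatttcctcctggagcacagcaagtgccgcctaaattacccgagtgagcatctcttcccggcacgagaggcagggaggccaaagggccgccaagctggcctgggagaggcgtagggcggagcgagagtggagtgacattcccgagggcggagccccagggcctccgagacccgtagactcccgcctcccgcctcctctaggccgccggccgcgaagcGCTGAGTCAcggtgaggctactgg
They lie at chr14:64942696-64942995 on the minus strand (GPX2), chr12:104215529-104215828 on the plus strand (TXNRD1), chr1:93909381-93909680 on the minus strand (GCLM), chr6:83431002-83431301 on the minus strand (ME1) and chrX:15493284-15493583 on the minus strand (PIR). GPX2 and GCLM each hold 1 match on the strand opposite to the gene, and TXNRD1 and ME1 hold 1 on each strand. A match is a description of these letters, not a measured binding site, and the absence of one in NQO1 or SRXN1 concerns this window alone.

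Recovered reads ran from 84210775 to 111141708 per library. SNAI1, whose target site was edited, averaged 1313 ± 96.5 normalized counts in TGFβ-treated Sm22mut, 875 ± 97.2 in TGFβ-treated WT, 481 ± 43.4 in untreated Sm22mut and 496 ± 88.6 in untreated WT (SD, n = 3 each), and a gene-level count does not show whether the site is gone. Of the epithelial markers, all 5 were lower with TGFβ in both lines, whereas 30.7% of all genes tested fell in Sm22mut and 30.9% in WT. Their summed counts were 406708 to 469594 in TGFβ-treated Sm22mut, 391165 to 508317 in TGFβ-treated WT, 556834 to 574504 in untreated Sm22mut and 534691 to 556900 in untreated WT. Of the 5 lung lineage markers, SFTPC and SFTPB averaged at most 3.586 and 4.127 in any group, NKX2-1 9.398 to 24.15, NAPSA 94.92 to 141.2 and FOXA2 3173 to 4249. Of the 3 tested, NKX2-1 rose with TGFβ in Sm22mut, and in WT NAPSA rose and FOXA2 fell. Fibroblast markers rose with TGFβ (4 of 5 tested in Sm22mut, 5 of 5 in WT, against 32.1% and 30.8% of all genes tested). Their summed counts were 1695 to 2016 in TGFβ-treated Sm22mut, 1200 to 1399 in TGFβ-treated WT, 213 to 281 in untreated Sm22mut and 145 to 187 in untreated WT. COL1A2, among those that rose in WT, was low there, at 4.985 ± 1.53 with TGFβ and 1.214 ± 1.07 without (SD, n = 3 each). Endothelial markers summed to 33 to 183 and leukocyte markers to 274 to 419 over all libraries, with CDH5, KDR and TEK at 0 in some groups. The part of these markers in the results was not tested.

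TGFβ lowered most of the 36 genes in both lines. In Sm22mut 27 fell, 6 rose and 3 did not pass the test, whereas 30.7% of all genes tested fell and 32.1% rose (limma, Benjamini-Hochberg adjusted p under 0.05). In WT 29 fell, 5 rose and 2 did not pass, whereas 30.9% of all genes fell and 30.8% rose. The median log2 fold change of the members was -0.58 in Sm22mut and -0.76 in WT, against 0.03 and 0.02 over all genes tested. The falls in ALDH3A1, GPX2, OSGIN1, AKR1B10 and NR0B1 and the rise in HMOX1 exceeded 3-fold in both lines. In bulk RNA, fewer cells of a type and less RNA per cell cannot be told apart.

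Together the 36 genes took 1.42 ± 0.0603% of all recovered reads in TGFβ-treated Sm22mut and 1.58 ± 0.11% in TGFβ-treated WT. They took 2.64 ± 0.0603% in untreated Sm22mut and 3.27 ± 0.17% in untreated WT (SD, n = 3 each). Every TGFβ-treated library lay below every untreated one. The 9 genes of carbonyl and quinone reduction alone took 0.487 ± 0.032% in TGFβ-treated Sm22mut, 0.558 ± 0.0515% in TGFβ-treated WT, 1.09 ± 0.0416% in untreated Sm22mut and 1.4 ± 0.0961% in untreated WT. AKR1B10 made up much of their summed normalized counts. In WT it held 668378 to 816946 of 1180493 to 1402252 untreated and 135921 to 174419 of 463046 to 579557 with TGFβ. In Sm22mut it held 466446 to 507801 of 961223 to 1018810 untreated and 123614 to 151012 of 416477 to 494722 with TGFβ. Within 3 of the groups most members ranked the libraries alike. Replicate 1 was highest for 28 members and replicate 3 lowest for 29 in TGFβ-treated WT. In untreated WT replicate 1 was highest for 28 and replicate 2 lowest for 29, and in TGFβ-treated Sm22mut replicate 1 was highest for 24 and replicate 2 lowest for 29. Recovered reads in those lowest libraries were 107835455, 109676392 and 85562217, and in the highest ones 86053716, 93481394 and 92058755. The same count was not made over all genes tested, so this order is not shown to be particular to the members. The part of depth in this order was not tested.

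**Figure D1:**
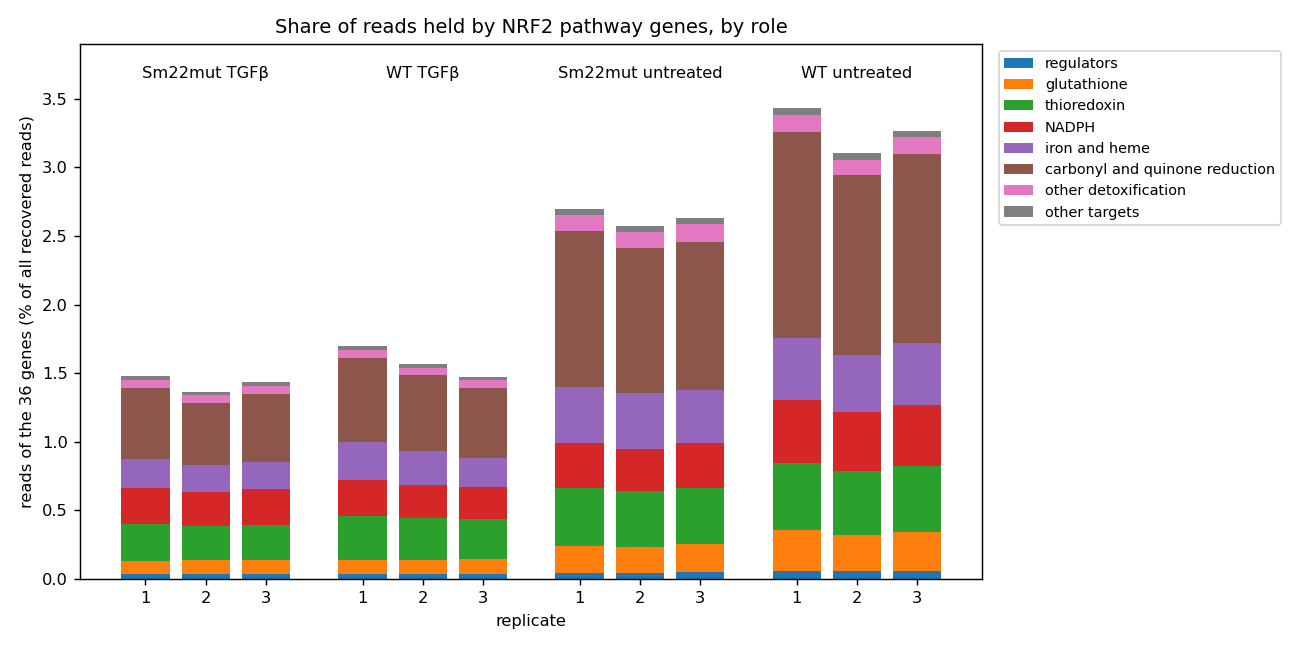
Reads of the 36 NRF2 pathway and antioxidant genes as a percentage of all recovered reads (vertical axis) in each of the 12 libraries (horizontal axis, replicates 1 to 3 of each group), with stacked colours for the roles of the genes. Group means were 1.42% in TGFβ-treated Sm22mut, 1.58% in TGFβ-treated WT, 2.64% in untreated Sm22mut and 3.27% in untreated WT.

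Of the 4 regulators, NFE2L2 itself fell with TGFβ and was the only one of the 4 that passed the test in both lines. NFE2L2 had 12335, 12093 and 12477 normalized counts in TGFβ-treated Sm22mut, 13473, 13074 and 12607 in TGFβ-treated WT, 19845, 21331 and 22501 in untreated Sm22mut, and 34578, 29197 and 33161 in untreated WT. All 4 groups were apart, with TGFβ-treated Sm22mut lowest and untreated WT highest. The TGFβ effect was a log2 fold change of -0.79 ± 0.07 in Sm22mut (adjusted p = 3.03e-08) and -1.30 ± 0.07 in WT (adjusted p = 5.86e-11). KEAP1, the adaptor that targets NRF2 for destruction, had 5480.0, 4839 and 5559 normalized counts in TGFβ-treated Sm22mut, 6335, 5628 and 5206 in TGFβ-treated WT, 5848, 5742 and 5648 in untreated Sm22mut, and 6431, 6021 and 6166 in untreated WT. Its groups overlapped in part, and its log2 fold change with TGFβ was -0.12 ± 0.07 in Sm22mut (adjusted p = 0.16) and -0.12 ± 0.07 in WT (adjusted p = 0.161). KEAP1 passed the test in WT without replicate 1 of the TGFβ libraries (adjusted p = 0.0173) and in Sm22mut with equal library totals (adjusted p = 0.0124).

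MAFG, a small MAF partner of NRF2, had 7481, 7245 and 7790.3 normalized counts in TGFβ-treated Sm22mut, 7825, 8132 and 7755 in TGFβ-treated WT, 7124, 7235 and 7489.6 in untreated Sm22mut, and 6615, 6905 and 7129 in untreated WT. Its log2 fold change with TGFβ was 0.04 ± 0.05, adjusted p = 0.503 in Sm22mut, and it rose in WT (0.20 ± 0.05, adjusted p = 0.00413), where every treated library lay above every untreated one. The repressor gene BACH1 had 6121, 6355 and 6433 normalized counts in TGFβ-treated Sm22mut, 4432, 5127 and 6049.9 in TGFβ-treated WT, 6193, 6072 and 6635 in untreated Sm22mut, and 6672, 6218 and 6744 in untreated WT. TGFβ-treated WT was below the other 3 groups without overlap. In Sm22mut the log2 fold change of BACH1 was 0.00 ± 0.09, adjusted p = 0.989, with a 95% interval of -0.18 to 0.18, and in WT it fell (-0.34 ± 0.09, adjusted p = 0.00262).

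**Figure D2:**
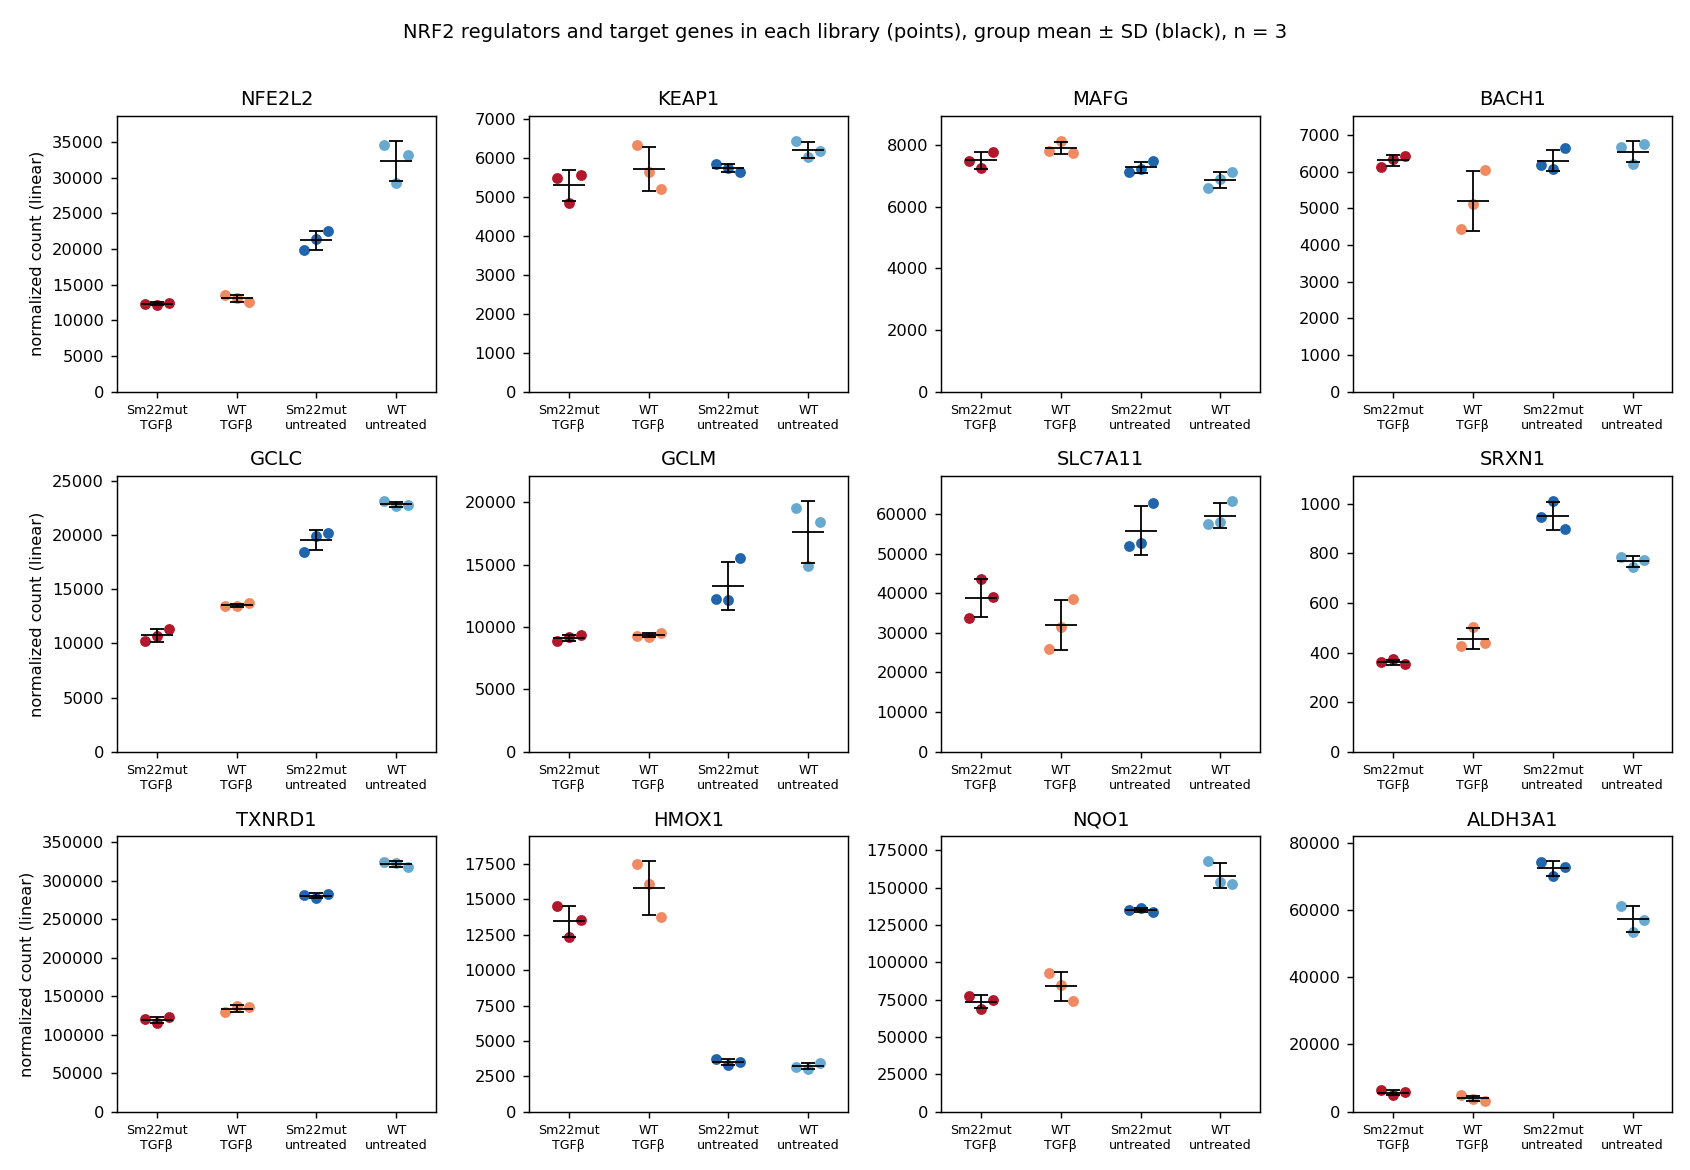
Normalized counts (vertical axis, linear, from 0) of 12 NRF2 regulators and targets in the 4 groups (horizontal axis), with 1 point per library and black bars for the mean ± SD (n = 3). NFE2L2, GCLC and TXNRD1 were lower in every TGFβ-treated than in every untreated library, HMOX1 was higher, and ALDH3A1 was at most 6316 with TGFβ in either line, against at least 53481 without.

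The glutathione genes fell, except GSTM3. GCLC and GCLM encode the catalytic and modifier subunits of glutamate-cysteine ligase, which makes the first intermediate of glutathione. GCLC had 10193, 10728 and 11341 normalized counts in TGFβ-treated Sm22mut, 13457, 13473 and 13713 in TGFβ-treated WT, 18465, 19939 and 20196 in untreated Sm22mut, and 23142, 22689 and 22826 in untreated WT. Its 4 groups did not overlap, and Sm22mut was below WT in each condition. The TGFβ effect on GCLC was -0.86 ± 0.06 in Sm22mut (adjusted p = 9.27e-10) and -0.76 ± 0.06 in WT (adjusted p = 5.41e-09). GCLM had 8853, 9173 and 9357 normalized counts in TGFβ-treated Sm22mut, 9310.0, 9215 and 9530.3 in TGFβ-treated WT, 12232, 12143 and 15504 in untreated Sm22mut, and 19571, 14867 and 18451 in untreated WT, and its treated libraries were all below its untreated ones, at -0.53 ± 0.10 in Sm22mut (adjusted p = 0.00016) and -0.90 ± 0.10 in WT (adjusted p = 5.64e-07).

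SLC7A11, the cystine importer of system xc-, had 33851, 43549 and 39021 normalized counts in TGFβ-treated Sm22mut, 25878, 31456 and 38563 in TGFβ-treated WT, 51857, 52758 and 62818 in untreated Sm22mut, and 57490.3, 57972 and 63214 in untreated WT. The treated libraries were all lower than the untreated ones, and Sm22mut and WT overlapped in each condition. Its TGFβ effect was -0.53 ± 0.12 in Sm22mut (adjusted p = 0.0013) and -0.92 ± 0.12 in WT (adjusted p = 6.44e-06). GSR, glutathione reductase, had 31461, 28037 and 30347 normalized counts in TGFβ-treated Sm22mut, 35574, 33546 and 29899.7 in TGFβ-treated WT, 47513, 47903 and 47089 in untreated Sm22mut, and 68901, 64024 and 64651 in untreated WT. TGFβ lowered GSR 1.588-fold in Sm22mut (adjusted p = 2.88e-07) and 1.999-fold in WT (adjusted p = 2.28e-09), with an SE of 0.07 on the log2 scale in each, and its treated libraries were all below its untreated ones.

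GPX2 encodes an epithelial glutathione peroxidase and showed the largest fall of the 6 glutathione genes. It had 8970.1, 7056 and 8583 normalized counts in TGFβ-treated Sm22mut, 11286, 8616 and 8257 in TGFβ-treated WT, 47118, 36890.1 and 43609.9 in untreated Sm22mut, and 105095, 77647 and 91180.3 in untreated WT. TGFβ-treated Sm22mut and WT overlapped, while untreated Sm22mut was 2.14-fold lower than untreated WT. The TGFβ effect was -2.37 ± 0.13 in Sm22mut (adjusted p = 1.33e-10) and -3.29 ± 0.13 in WT (adjusted p = 2.54e-12). GSTM3, a mu-class glutathione transferase, had 171, 155 and 160.4 normalized counts in TGFβ-treated Sm22mut, 246, 246 and 189 in TGFβ-treated WT, 98, 98.7 and 109 in untreated Sm22mut, and 288, 181 and 198 in untreated WT. GSTM3 was lowest in untreated Sm22mut, rose there with TGFβ (0.67 ± 0.18, adjusted p = 0.00406) and stood at 0.05 ± 0.18 in WT (adjusted p = 0.824).

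In the thioredoxin group 3 genes fell and 1 rose in both lines (75% and 25%). The shares of all genes tested were 30.7% and 32.1% in Sm22mut and 30.9% and 30.8% in WT. TXNRD1, cytosolic thioredoxin reductase, had 120051, 114878 and 123098 normalized counts in TGFβ-treated Sm22mut, 129561, 137019 and 135688 in TGFβ-treated WT, 281517, 277107 and 283385 in untreated Sm22mut, and 324644, 322537 and 317455 in untreated WT. Its 4 groups were apart, and its TGFβ effect was -1.23 ± 0.06 in Sm22mut (adjusted p = 5.77e-11) and -1.26 ± 0.06 in WT (adjusted p = 4.8e-11). SRXN1, the sulfiredoxin that repairs over-oxidized peroxiredoxins, had 360.2, 373 and 352 normalized counts in TGFβ-treated Sm22mut, 426, 503 and 438 in TGFβ-treated WT, 948, 1010.4 and 898 in untreated Sm22mut, and 787, 744 and 775 in untreated WT. Untreated Sm22mut was the highest group and TGFβ-treated Sm22mut the lowest. SRXN1 fell, with a log2 fold change of -1.39 ± 0.09 in Sm22mut (adjusted p = 1.45e-09) and -0.76 ± 0.09 in WT (adjusted p = 2.61e-06). TXN, thioredoxin itself, averaged 20881 ± 1326 in TGFβ-treated Sm22mut, 22039 ± 4459 in TGFβ-treated WT, 36401 ± 1197 in untreated Sm22mut, and 39952 ± 3281 in untreated WT (SD, n = 3 each), and fell with TGFβ (-0.80 ± 0.11 in Sm22mut and -0.88 ± 0.11 in WT).

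PRDX1, a thioredoxin-dependent peroxidase, went the other way. It had 114263, 89599.6 and 104986 normalized counts in TGFβ-treated Sm22mut, 147821, 122509.6 and 113022 in TGFβ-treated WT, 53764, 49682 and 52377 in untreated Sm22mut, and 85258, 67156 and 74728 in untreated WT. In both lines every TGFβ-treated library was above every untreated one. The rise of PRDX1 was 0.98 ± 0.11 in Sm22mut (adjusted p = 7.07e-07) and 0.75 ± 0.11 in WT (adjusted p = 1.51e-05).

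Among the genes of NADPH supply, PGD, TKT and TALDO1 belong to the pentose phosphate pathway. PGD, 6-phosphogluconate dehydrogenase, had 77251, 71818 and 77229.8 normalized counts in TGFβ-treated Sm22mut, 76957, 72446 and 66263 in TGFβ-treated WT, 144417, 133300.2 and 141917 in untreated Sm22mut, and 213702, 192645 and 199257 in untreated WT. The treated groups overlapped each other and were far below the untreated ones, of which WT was the higher. Its TGFβ effect was -0.89 ± 0.07 in Sm22mut (adjusted p = 1.56e-08) and -1.49 ± 0.07 in WT (adjusted p = 2.75e-11). TKT, transketolase, had 133877, 118083 and 127668 normalized counts in TGFβ-treated Sm22mut, 119119, 106745 and 96613 in TGFβ-treated WT, 102118, 95004 and 99310.4 in untreated Sm22mut, and 147772, 131568 and 145205 in untreated WT. It rose in Sm22mut (0.36 ± 0.08, adjusted p = 0.00122) and fell in WT (-0.40 ± 0.08, adjusted p = 0.000466), and in both lines the treated and untreated libraries were apart. With quantile normalization the value of TKT in Sm22mut was 0.21, still called.

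TALDO1, transaldolase, averaged 20567 ± 1360.3 in TGFβ-treated Sm22mut, 22064 ± 2947 in TGFβ-treated WT, 23944 ± 563 in untreated Sm22mut, and 28225 ± 1509.7 in untreated WT (SD, n = 3 each). It fell with TGFβ in Sm22mut (-0.22 ± 0.08, adjusted p = 0.029) and in WT (-0.36 ± 0.08, adjusted p = 0.00123). In Sm22mut it no longer passed when replicate 1 or 2 of the untreated or replicate 2 of the treated libraries was left out (adjusted p 0.0594, 0.0872 and 0.128). ME1, cytosolic malic enzyme, averaged 23185 ± 1039 in TGFβ-treated Sm22mut, 25536 ± 1327 in TGFβ-treated WT, 29179 ± 805 in untreated Sm22mut, and 38810.0 ± 2152 in untreated WT, and fell, with a log2 fold change of -0.33 ± 0.06 in Sm22mut (adjusted p = 0.00017) and -0.60 ± 0.06 in WT (adjusted p = 2.76e-07).

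HMOX1, heme oxygenase 1, which breaks down heme, rose in both lines while both ferritin genes fell. It had 14516, 12344 and 13511 normalized counts in TGFβ-treated Sm22mut, 17497, 16106 and 13743 in TGFβ-treated WT, 3726, 3280.0 and 3547 in untreated Sm22mut, and 3190.0, 3019.5 and 3448 in untreated WT. No treated library overlapped an untreated one. The rise was 1.93 ± 0.09 in Sm22mut (adjusted p = 1.06e-11) and 2.29 ± 0.09 in WT (adjusted p = 1.43e-12). FTL, the ferritin light chain, had 163040.0, 141439 and 150879.6 normalized counts in TGFβ-treated Sm22mut, 213367, 186233 and 153178 in TGFβ-treated WT, 317223, 321977 and 313534 in untreated Sm22mut, and 379229.8, 329158 and 359312 in untreated WT. The treated libraries held at most 213367 and the untreated ones at least 313534, and the TGFβ effect was -1.07 ± 0.10 in Sm22mut (adjusted p = 1.48e-07) and -0.96 ± 0.10 in WT (adjusted p = 5.63e-07). FTH1, the heavy chain, averaged 25986 ± 981 in TGFβ-treated Sm22mut, 28246 ± 2776 in TGFβ-treated WT, 40101 ± 919 in untreated Sm22mut, and 41475 ± 2230.4 in untreated WT (SD, n = 3 each), with an effect of -0.63 ± 0.07 in Sm22mut (adjusted p = 8.43e-07) and -0.56 ± 0.07 in WT (adjusted p = 3.49e-06). The table also held 16 FTL and 25 FTH1 pseudogenes, whose summed counts were 0.0313 to 0.0468% of FTL and 3.64 to 5.29% of FTH1, so that some reads of the 2 genes may be counted there.

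Of the 9 genes of carbonyl and quinone reduction, 7 fell and 2 rose in each line (77.8% and 22.2%). Of all genes tested, 30.7% fell and 32.1% rose in Sm22mut, and 30.9% fell and 30.8% rose in WT. NQO1, the quinone reductase often used as an NRF2 readout, had 77517, 68935 and 74626 normalized counts in TGFβ-treated Sm22mut, 93153, 84538 and 74152 in TGFβ-treated WT, 135387, 136591 and 133411 in untreated Sm22mut, and 167632, 153973 and 152665 in untreated WT. Treated libraries were lower without overlap, at -0.88 ± 0.08 in Sm22mut (adjusted p = 7.62e-08) and -0.92 ± 0.08 in WT (adjusted p = 4.78e-08). ALDH3A1, an aldehyde dehydrogenase of epithelia, had 6316, 4934 and 5762 normalized counts in TGFβ-treated Sm22mut, 4835, 3825 and 3247 in TGFβ-treated WT, 74276, 70081 and 72702 in untreated Sm22mut, and 61253, 53481 and 56951 in untreated WT. The 4 groups were apart, and in each condition Sm22mut was above WT. The fall of ALDH3A1 with TGFβ was -3.68 ± 0.11 in Sm22mut (adjusted p = 1.04e-13) and -3.87 ± 0.11 in WT (adjusted p = 5.95e-14), equal to 12.8-fold in Sm22mut and 14.6-fold in WT.

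AKR1B10 and AKR1B1 are aldo-keto reductases whose genes lie 68328 bases apart on GRCh38.p14 (AKR1B1 at chr7:134442350-134459239 and AKR1B10 at chr7:134527567-134541412, RefSeq) and whose coding sequences are 76.1% identical. AKR1B10 had 151012, 123614 and 144177 normalized counts in TGFβ-treated Sm22mut, 174419, 147189.7 and 135921 in TGFβ-treated WT, 507801, 466446 and 477488 in untreated Sm22mut, and 816946, 668378 and 724125 in untreated WT. TGFβ lowered it without overlap, with a log2 fold change of -1.80 ± 0.11 in Sm22mut (adjusted p = 3.15e-10) and -2.27 ± 0.11 in WT (adjusted p = 1.84e-11). AKR1B1, aldose reductase, averaged 55264 ± 6723 in TGFβ-treated Sm22mut, 54515 ± 6485 in TGFβ-treated WT, 34390.3 ± 718 in untreated Sm22mut, and 37737 ± 2881 in untreated WT (SD, n = 3 each), and rose, with a log2 fold change of 0.68 ± 0.09 in Sm22mut (adjusted p = 9.08e-06) and 0.53 ± 0.09 in WT (adjusted p = 0.000129). The ratio of AKR1B10 to AKR1B1 counts was 2.47 to 2.6 in TGFβ-treated Sm22mut, 2.74 to 2.83 in TGFβ-treated WT, 13.8 to 14.4 in untreated Sm22mut and 19 to 20.2 in untreated WT. These ranges are of counts, not per length, and are used only between groups.

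The carbonyl reductases CBR3 and CBR1 lie 61915 bases apart (CBR1 at chr21:36070024-36073164 and CBR3 at chr21:36135079-36146562), and their coding sequences are 77% identical. CBR3 had 165, 165 and 152 normalized counts in TGFβ-treated Sm22mut, 239.6, 163 and 130.3 in TGFβ-treated WT, 51.6, 29 and 56.4 in untreated Sm22mut, and 83.7, 91.5 and 89.2 in untreated WT. Untreated Sm22mut was lowest. CBR3 rose, with a log2 fold change of 1.85 ± 0.25 in Sm22mut (adjusted p = 8.45e-06) and 0.96 ± 0.25 in WT (adjusted p = 0.00377), the least precise of the member values. CBR1 averaged 3403 ± 261 in TGFβ-treated Sm22mut, 3781 ± 638 in TGFβ-treated WT, 6241 ± 107 in untreated Sm22mut, and 7927 ± 598 in untreated WT (SD, n = 3 each) and fell, with a log2 fold change of -0.88 ± 0.10 in Sm22mut (adjusted p = 6.89e-07) and -1.08 ± 0.10 in WT (adjusted p = 6.44e-08). The neighbours of each pair thus moved in opposite directions in both lines.

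**Figure D3:**
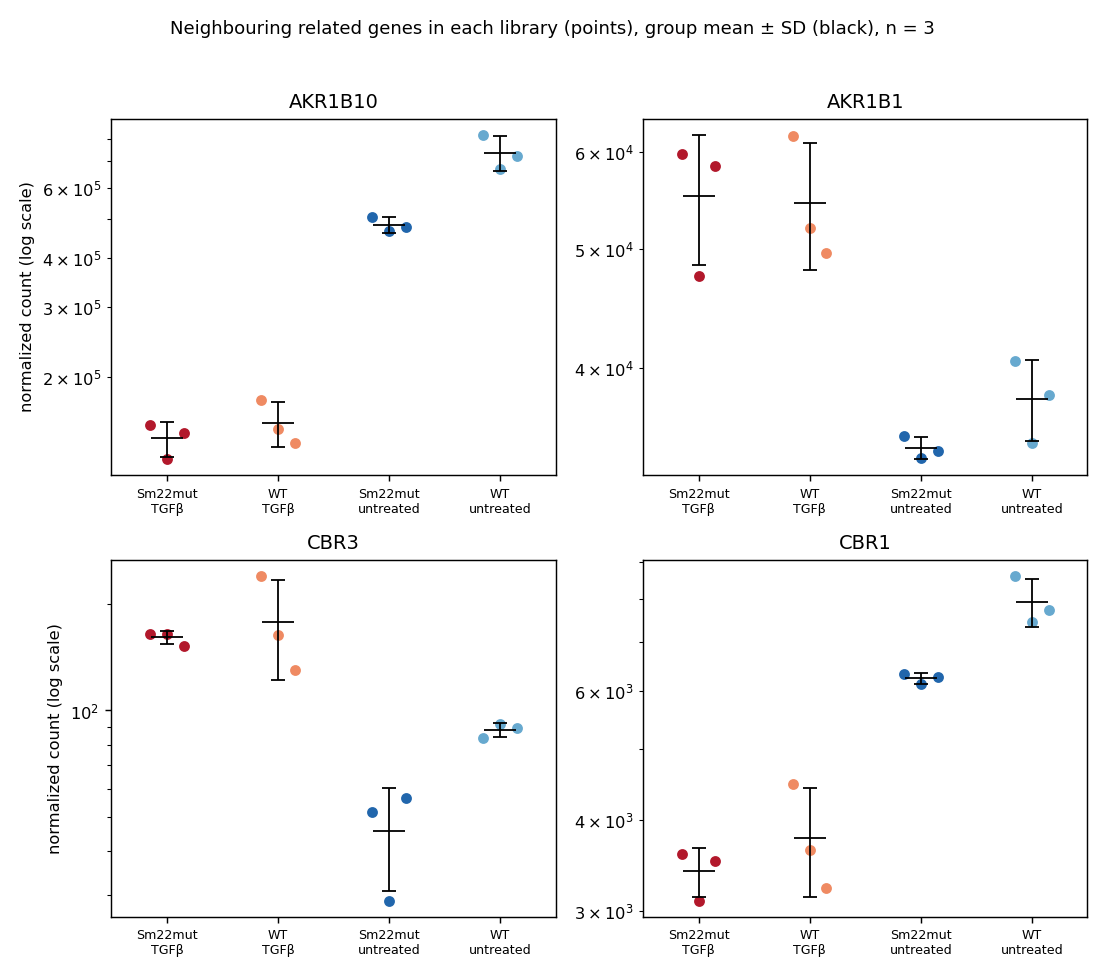
Normalized counts (vertical axes, log scale) of AKR1B10 and AKR1B1 and of CBR3 and CBR1 in the 4 groups (horizontal axis), with 1 point per library and black bars for the mean ± SD (n = 3). AKR1B10 and CBR1 were lower, and AKR1B1 and CBR3 higher, in TGFβ-treated than in untreated libraries of each line.

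AKR1C1, AKR1C2 and AKR1C3, reductases of steroids and carbonyls, lie beside each other on chromosome 10. AKR1C2 had 100189, 88775 and 97213 normalized counts in TGFβ-treated Sm22mut, 130702, 123555 and 111606 in TGFβ-treated WT, 130171, 122912 and 127433 in untreated Sm22mut, and 160013, 139811 and 147295 in untreated WT. TGFβ-treated Sm22mut was below the other 3 groups. All 3 genes fell with TGFβ in both lines. The log2 fold change of AKR1C2 was -0.41 ± 0.08 in Sm22mut (adjusted p = 0.000194) and -0.29 ± 0.08 in WT (adjusted p = 0.00377). AKR1C1 averaged 16793 ± 1885 in TGFβ-treated Sm22mut, 16915 ± 1729 in TGFβ-treated WT, 26913 ± 2105 in untreated Sm22mut, and 31082 ± 3865 in untreated WT, with a log2 fold change of -0.68 ± 0.10 in Sm22mut (adjusted p = 1.87e-05) and -0.88 ± 0.10 in WT (adjusted p = 1.28e-06). AKR1C3 averaged 72190.2 ± 6749 in TGFβ-treated Sm22mut, 79909.6 ± 10791 in TGFβ-treated WT, 99742 ± 1934 in untreated Sm22mut, and 101809 ± 9097 in untreated WT (SD, n = 3 each), with a log2 fold change of -0.47 ± 0.10 in Sm22mut (adjusted p = 0.000425) and -0.35 ± 0.10 in WT (adjusted p = 0.00424). Their coding sequences are 91 to 98% identical, with 19 mismatches in 972 bases between AKR1C1 and AKR1C2, and reads that match both may have been dropped or split, so the separate values are uncertain.

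Of the remaining members, UGDH makes UDP-glucuronate for glucuronidation and EPHX1 is microsomal epoxide hydrolase. UGDH had 48551, 44849.9 and 49006 normalized counts in TGFβ-treated Sm22mut, 44361, 41729.6 and 43752 in TGFβ-treated WT, 94402, 95403 and 107929 in untreated Sm22mut, and 104584, 91605 and 98691 in untreated WT. The treated libraries lay far below the untreated ones, at -1.06 ± 0.07 in Sm22mut (adjusted p = 1.43e-09) and -1.18 ± 0.07 in WT (adjusted p = 4.31e-10). EPHX1 averaged 9388 ± 797 in TGFβ-treated Sm22mut, 8840.0 ± 966 in TGFβ-treated WT, 11004 ± 316 in untreated Sm22mut, and 12541 ± 702 in untreated WT (SD, n = 3 each). It fell in Sm22mut (-0.23 ± 0.08, adjusted p = 0.0175) and in WT (-0.51 ± 0.08, adjusted p = 3.36e-05). In Sm22mut it did not pass when replicate 1 or 3 of the untreated or replicate 2 of the treated libraries was left out (adjusted p 0.0527, 0.0523 and 0.102).

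OSGIN1, an oxidative stress-induced growth inhibitor, had 1111, 997 and 976 normalized counts in TGFβ-treated Sm22mut, 1796, 1673 and 1468 in TGFβ-treated WT, 5923, 5663 and 5596 in untreated Sm22mut, and 6174, 6094 and 6509.8 in untreated WT. Its 4 groups were apart, with TGFβ-treated Sm22mut lowest, and its TGFβ effect was -2.48 ± 0.08 in Sm22mut (adjusted p = 9.48e-14) and -1.93 ± 0.08 in WT (adjusted p = 2.29e-12). NR0B1, the nuclear receptor DAX1, had 494, 404 and 498 normalized counts in TGFβ-treated Sm22mut, 605, 481 and 400.1 in TGFβ-treated WT, 1914, 2093 and 1918 in untreated Sm22mut, and 1781, 1733 and 1632 in untreated WT. Treated libraries were lower without overlap, at -2.09 ± 0.12 in Sm22mut (adjusted p = 3.74e-10) and -1.81 ± 0.12 in WT (adjusted p = 2.59e-09). PIR, the nuclear protein pirin, had 4976, 4557 and 4759.7 normalized counts in TGFβ-treated Sm22mut, 7525, 6561 and 5589 in TGFβ-treated WT, 5964, 5987 and 6037 in untreated Sm22mut, and 10226, 9475 and 9699 in untreated WT, and fell, with a log2 fold change of -0.33 ± 0.08 in Sm22mut (adjusted p = 0.0022) and -0.59 ± 0.08 in WT (adjusted p = 1.1e-05).

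TRIM16L, a TRIM16-like gene, had 21851, 18460.3 and 20514 normalized counts in TGFβ-treated Sm22mut, 17986, 17128 and 16643 in TGFβ-treated WT, 24008, 24983 and 24721 in untreated Sm22mut, and 24335, 23835 and 24388 in untreated WT. It was lowest in TGFβ-treated WT, and TGFβ lowered it, with a log2 fold change of -0.28 ± 0.06 in Sm22mut (adjusted p = 0.000858) and -0.49 ± 0.06 in WT (adjusted p = 3.67e-06). Its coding sequence of 1047 bases is 98.7% identical to that of a TRIM16 transcript picked for equal coding length, so its counts are uncertain. In the GENCODE 29 annotation 24 of the 36 members overlapped another gene and 20 an antisense gene, and the sources used here do not say whether reads were counted by strand.

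**Figure D4:**
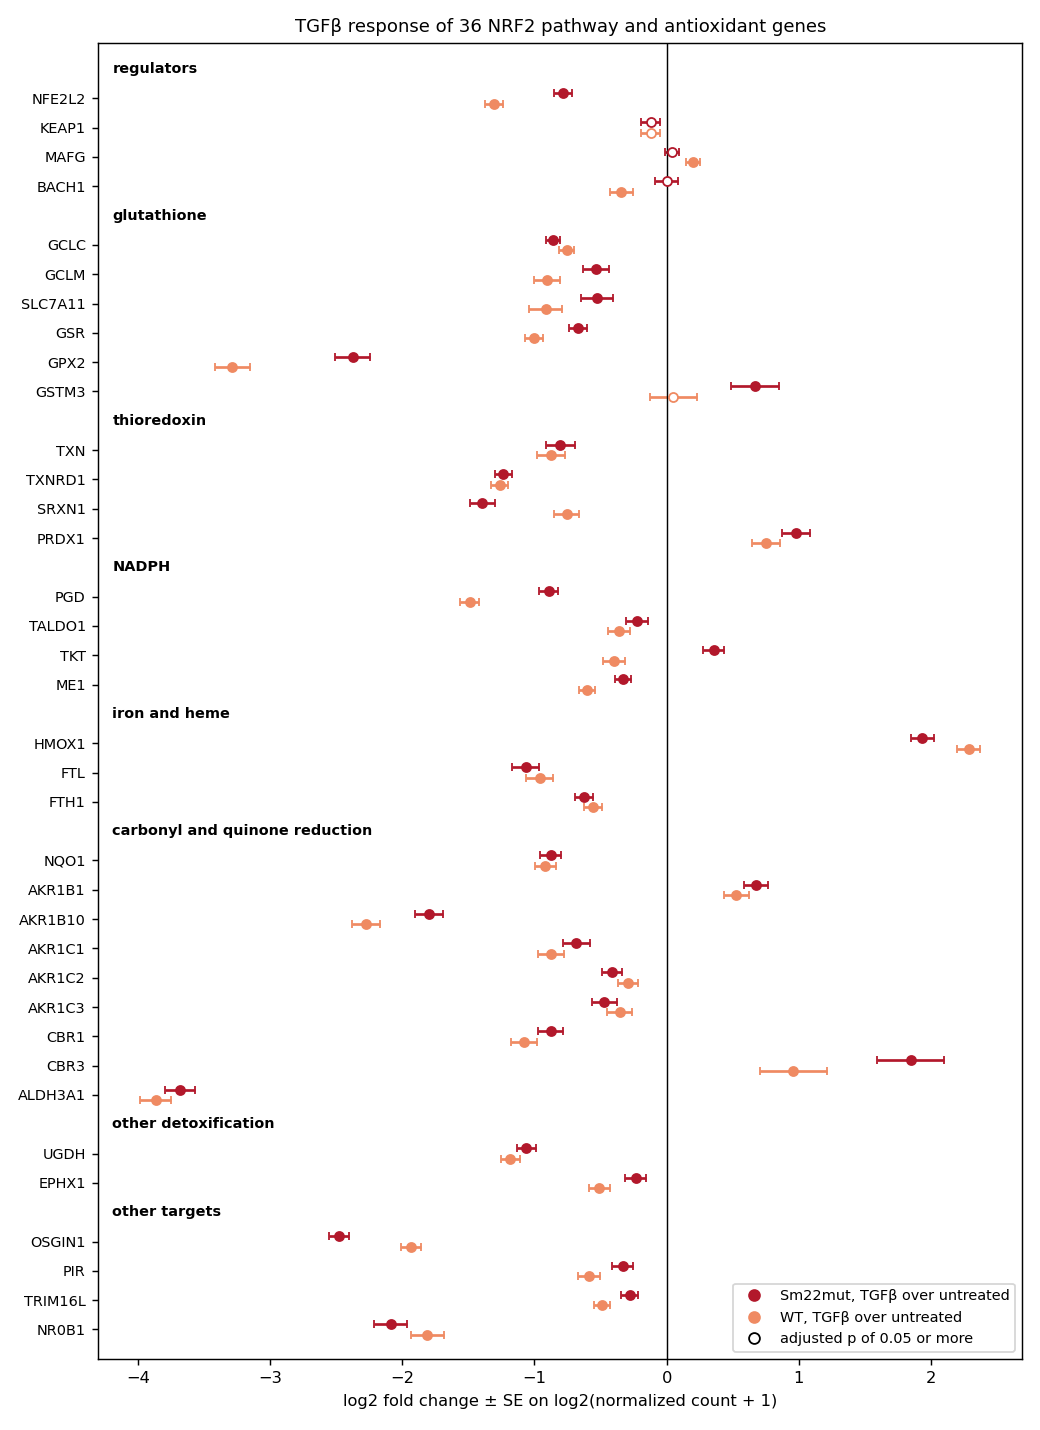
Log2 fold change (horizontal axis, ± SE) with TGFβ over untreated for the 36 genes (vertical axis, by role) in Sm22mut (dark) and WT (light), with open symbols where the adjusted p was 0.05 or more. ALDH3A1 lay furthest to the left at -3.68 in Sm22mut and -3.87 in WT, and HMOX1 lay at 1.93 in Sm22mut and 2.29 in WT.

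The responses of the members in both lines, which share no library, lay near one line. Across the 36 genes Pearson's r was 0.948 and Spearman's rho 0.926, and 34 of 36 had the same sign. Across all genes tested r was 0.889. These describe genes, which are not independent replicates. The 2 genes whose sign differed were TKT and BACH1, and BACH1 stood at 0.00 in Sm22mut.

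Without TGFβ, more members were lower than higher in Sm22mut relative to WT. Of the 36 genes 18 were lower, 2 were higher and 16 did not pass the test, whereas 17.5% of all genes tested were lower and 14.3% higher. The median log2 fold change was -0.20, against 0.00 over all genes. NFE2L2 was lower (-0.60 ± 0.07, adjusted p = 5.37e-06). All 4 NADPH genes were lower, at -0.53 ± 0.07 for PGD, -0.52 ± 0.08 for TKT, -0.41 ± 0.06 for ME1 and -0.24 ± 0.08 for TALDO1 (adjusted p = 0.0398). Of the 6 glutathione genes 5 were lower, namely GPX2 (-1.10 ± 0.13, adjusted p = 1.15e-05), GSTM3 (-1.09 ± 0.18, adjusted p = 0.000244), GSR (-0.47 ± 0.07, adjusted p = 7.83e-05), GCLM (-0.41 ± 0.10) and GCLC (-0.23 ± 0.06).

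PIR (-0.71 ± 0.08, adjusted p = 9.12e-06), AKR1B10 (-0.60 ± 0.11, adjusted p = 0.00043), PRDX1 (-0.54 ± 0.11, adjusted p = 0.00128) and CBR3 (-0.99 ± 0.25, adjusted p = 0.00725) were lower too, each without overlap between the libraries. The smaller differences were -0.34 ± 0.10 for CBR1, -0.23 ± 0.08 for AKR1C2, -0.23 ± 0.08 for NQO1 and -0.20 ± 0.06 for TXNRD1. SRXN1 (0.31 ± 0.09, adjusted p = 0.0186) and ALDH3A1 (0.34 ± 0.11, adjusted p = 0.0323) were higher in untreated Sm22mut. The iron and heme genes did not pass the test, with HMOX1 at 0.13 ± 0.09 (95% interval -0.06 to 0.31), FTL at -0.16 ± 0.10 and FTH1 at -0.05 ± 0.07. The other values that did not pass were KEAP1 at -0.11 ± 0.07, MAFG at 0.08 ± 0.05, BACH1 at -0.06 ± 0.09, SLC7A11 at -0.10 ± 0.12 and TXN at -0.13 ± 0.11. Likewise AKR1B1 was at -0.13 ± 0.09, AKR1C1 at -0.20 ± 0.10, AKR1C3 at -0.03 ± 0.10 and UGDH at 0.01 ± 0.07. EPHX1 was at -0.19 ± 0.08, and passed without replicate 1 or 3 of TGFβ-treated WT (adjusted p 0.03 and 0.04). OSGIN1 was at -0.13 ± 0.08, TRIM16L at 0.02 ± 0.06 and NR0B1 at 0.20 ± 0.12.

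Several of these calls depended on single libraries. TXNRD1, TALDO1 and NQO1 lost theirs whichever of the 6 untreated libraries was left out, with adjusted p of 0.0603 to 0.0848, 0.0587 to 0.153 and 0.0623 to 0.161. TALDO1 and NQO1 also lost theirs without replicate 2 of TGFβ-treated WT or replicate 3 of TGFβ-treated Sm22mut (0.0529 to 0.0611). AKR1C2 lost it without replicate 1 or 3 of untreated WT or any replicate of untreated Sm22mut (0.0544 to 0.141). ALDH3A1 did so without replicate 2 or 3 of untreated WT or any replicate of untreated Sm22mut (0.0602 to 0.109). SRXN1 lost it without replicate 2 of untreated WT (0.0579) or of untreated Sm22mut (0.0816), and CBR1 without replicate 1 of untreated WT (0.0687). With quantile normalization AKR1B10 (log2 fold change -0.24, adjusted p = 0.114) and TXNRD1 (0.0852) did not pass. Testing every gene with any read also took TXNRD1, TALDO1, NQO1, AKR1C2 and ALDH3A1 to 0.0507 to 0.0782.

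**Figure D5:**
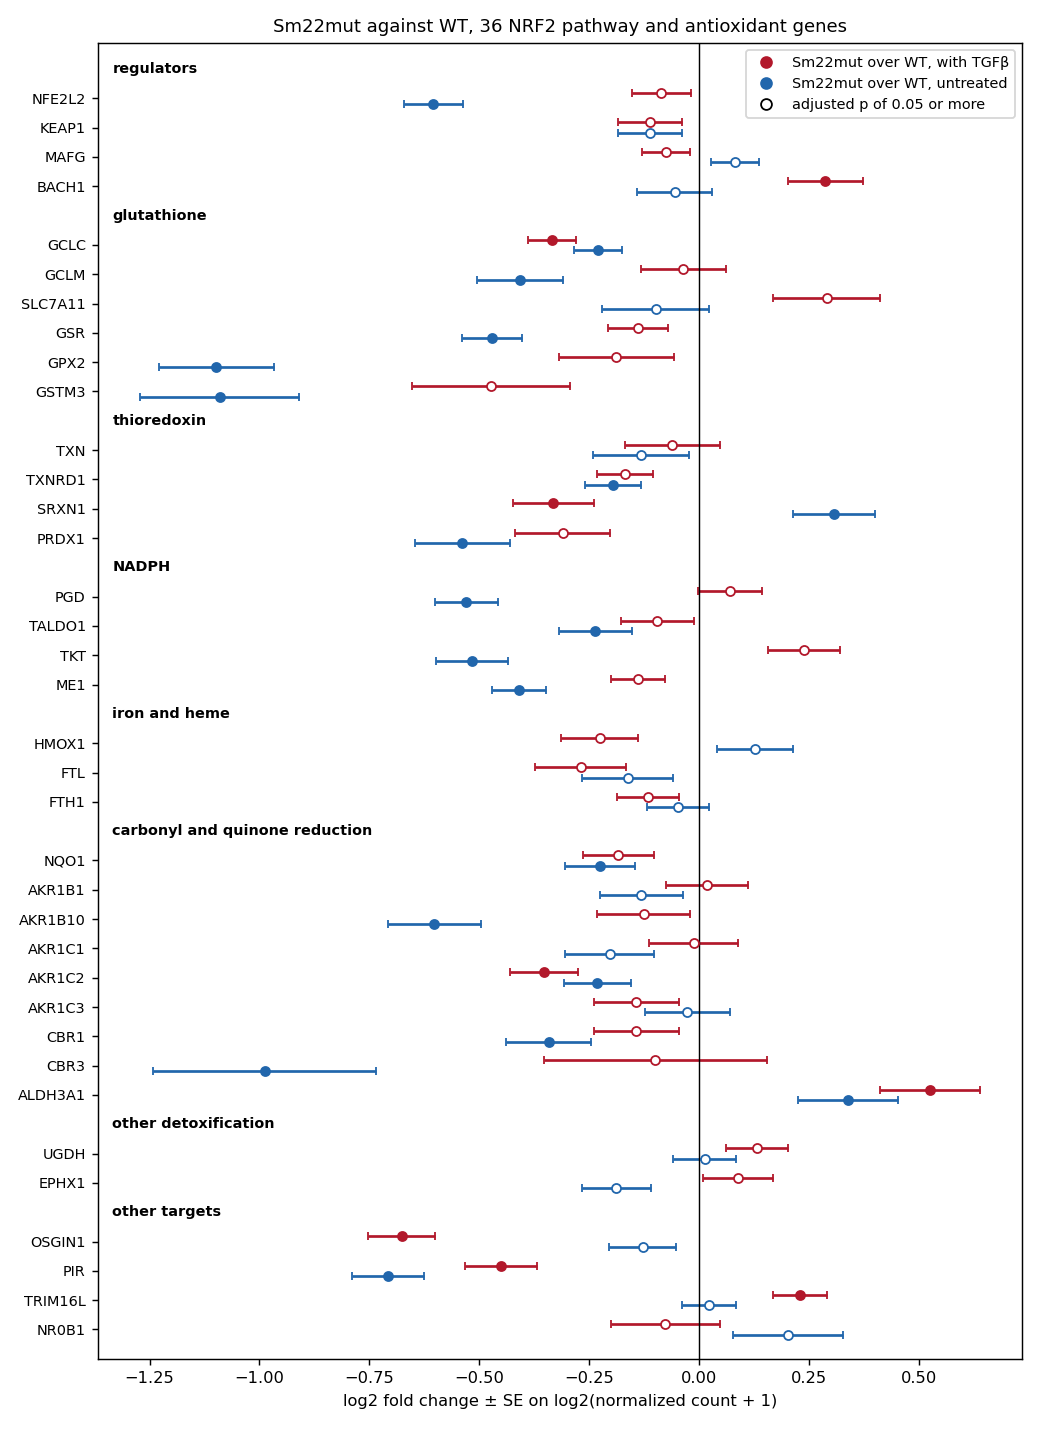
Log2 fold change (horizontal axis, ± SE) of Sm22mut over WT for the 36 genes (vertical axis, by role), with TGFβ (red) and untreated (blue), and open symbols where the adjusted p was 0.05 or more. 8 red and 20 blue symbols are filled, and GPX2 lay at -0.19 with TGFβ and -1.10 untreated.

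With TGFβ, fewer members passed the test between Sm22mut and WT. Of the 36 genes 5 were lower, 3 were higher and 28 did not pass the test, whereas 4.32% of all genes tested were lower and 7.38% higher. The split depended on the scaling. With equal library totals 11 members were lower and 2 higher, against 6.62% and 6.13% of all genes, and with quantile normalization 8 were lower and 3 higher, against 6.58% and 6.68%. The median was -0.11, against 0.01 over all genes. OSGIN1 (-0.68 ± 0.08, adjusted p = 3.27e-05), PIR (-0.45 ± 0.08, adjusted p = 0.00204), AKR1C2 (-0.35 ± 0.08, adjusted p = 0.00693), GCLC (-0.33 ± 0.06, adjusted p = 0.000962) and SRXN1 (-0.33 ± 0.09, adjusted p = 0.0291) were lower in Sm22mut. ALDH3A1 (0.53 ± 0.11, adjusted p = 0.00674), BACH1 (0.29 ± 0.09, adjusted p = 0.04) and TRIM16L (0.23 ± 0.06, adjusted p = 0.0231) were higher. The libraries of the groups did not overlap in these 8, nor in NFE2L2, GSTM3, TXNRD1, ME1 and UGDH, which did not pass. The share of all genes without overlap was not computed. NFE2L2 differed by -0.08 ± 0.07, with a 95% interval of -0.23 to 0.06, and GPX2 by -0.19 ± 0.13, with an interval of -0.47 to 0.09.

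The 28 values that did not pass ran from -0.47 ± 0.18 for GSTM3 to 0.29 ± 0.12 for SLC7A11. Over the single libraries left out, the count of all genes called ran from 1386 to 3841, against 2394 in the main fit. The count of 8 members rose to 17 without replicate 3 of TGFβ-treated WT. The genes gained then were SLC7A11, GSR, GSTM3, PRDX1, TALDO1, HMOX1, FTL, FTH1 and NQO1, and TKT passed without replicate 1 of that group (0.0125). The count of members fell to 5 without replicate 2 of TGFβ-treated WT or replicate 1 or 3 of TGFβ-treated Sm22mut, where SRXN1 and TRIM16L were lost (adjusted p 0.0728 to 0.141). BACH1 lost its call without 9 of the 12 libraries, among them each replicate of TGFβ-treated Sm22mut and replicates 1 and 2 of TGFβ-treated WT (0.07 to 0.132), and its log2 fold change was 0.18 without replicate 1 of TGFβ-treated WT. It was also lost with edgeR's quasi-likelihood test on recovered reads (0.0611) and with other scalings (0.0516 to 0.09). In turn, TXNRD1 (adjusted p 0.0218 with edgeR and 0.00326 with DESeq2), FTL (0.0423 and 0.033), PRDX1 (0.0448 and 0.0315) and TKT (0.0425 and 0.0274) passed with both. Fitted on the 6 treated libraries alone, 1183 of all genes and 3 members passed. AKR1C2 (0.0596), ALDH3A1 (0.0706), TRIM16L (0.123), SRXN1 (0.131) and BACH1 (0.151) did not.

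Whether TGFβ acted differently on the members in Sm22mut than in WT was tested as an interaction. It passed for 9 of the 36 members, 7 with a higher value in Sm22mut (10.6% of all genes tested) and 2 with a lower one (6.02%). With equal library totals 7 were higher and 3 lower (8.46% and 7.95% of all genes), and with quantile normalization 6 and 4 (8.6% and 7.49%). The median was 0.19, against 0.02 over all genes. NFE2L2 (0.52 ± 0.09, adjusted p = 0.00143), GPX2 (0.91 ± 0.18, adjusted p = 0.00315), PGD (0.60 ± 0.10, adjusted p = 0.000836), AKR1B10 (0.48 ± 0.15, adjusted p = 0.0397), GSR (0.33 ± 0.10, adjusted p = 0.027) and ME1 (0.27 ± 0.09, adjusted p = 0.0424) fell less with TGFβ in Sm22mut than in WT. Each of these was also lower in untreated Sm22mut than in untreated WT, a group that enters both comparisons. TKT (0.76 ± 0.12, adjusted p = 0.000402) was the member that rose in Sm22mut and fell in WT.

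SRXN1 (-0.64 ± 0.13, adjusted p = 0.00337) and OSGIN1 (-0.55 ± 0.11, adjusted p = 0.00255) fell further in Sm22mut. HMOX1, at -0.35 ± 0.12, adjusted p = 0.0619, did not pass, and passed with equal library totals, quantile normalization, TMM, edgeR and DESeq2 (0.0215 to 0.0366). It also passed without replicate 3 of TGFβ-treated WT (0.00543) or replicate 1 of TGFβ-treated Sm22mut (0.0465). BACH1, at 0.34 ± 0.12, adjusted p = 0.067, passed without replicate 3 of TGFβ-treated WT (0.00193), and so did SLC7A11 (0.0117). Without replicate 1 of TGFβ-treated WT, CBR1, CBR3, EPHX1 and PIR passed (0.0109 to 0.0356). EPHX1 (0.0421) and TRIM16L (0.0287) passed without replicate 2 of TGFβ-treated Sm22mut, and GCLM without replicate 2 of untreated WT (0.0123) or replicate 3 of untreated Sm22mut (0.0148). GSR lost its call without 7 of the 12 libraries (0.0508 to 0.0729), ME1 without 9 (0.0509 to 0.112) and AKR1B10 without 9 (0.051 to 0.104). In all 3 these were replicate 1 of untreated WT, replicate 2 of TGFβ-treated WT, every replicate of untreated Sm22mut and replicates 1 and 3 of TGFβ-treated Sm22mut, and in ME1 and AKR1B10 also replicate 3 of both WT groups. With quantile normalization the interaction of AKR1B10 was 0.14 and lost its call (adjusted p = 0.61).

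Another 83 genes of the same systems were listed by role. Of the 81 tested, 37 fell and 20 rose with TGFβ in Sm22mut (45.7% and 24.7%, against 30.7% and 32.1% of all genes), and 43 fell and 20 rose in WT (53.1% and 24.7%, against 30.9% and 30.8%). Among other regulators, the small MAF genes MAFK (-1.05 in Sm22mut and -0.81 in WT) and MAFF (-0.74 in Sm22mut and -1.59 in WT) fell, and NFE2L3, an NRF2 relative, rose (2.18 in Sm22mut and 1.74 in WT), in log2 fold change with TGFβ. In the glutathione system GSTA1, an alpha-class transferase, fell (-4.29 in Sm22mut and -4.74 in WT), and so did the glutaredoxin gene GLRX (-1.85 in Sm22mut and -1.11 in WT). GSTO1, an omega-class transferase, rose (1.07 in Sm22mut and 0.56 in WT).

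TXNIP, which binds and inhibits thioredoxin, fell (-3.05 in Sm22mut and -2.51 in WT), and SOD2, the mitochondrial superoxide dismutase, rose (1.12 in Sm22mut and 0.59 in WT). In Sm22mut 7 of the 12 other NADPH suppliers fell and 2 rose (58.3% and 16.7%, against 30.7% and 32.1% of all genes). In WT 9 fell and 2 rose (75% and 16.7%, against 30.9% and 30.8%). Those that fell included IDH1 (-1.45 in Sm22mut and -1.15 in WT) and MTHFD2 (-1.52 in Sm22mut and -2.18 in WT). ME2 rose in both lines (0.62 in Sm22mut and 0.63 in WT). The biliverdin reductase BLVRB fell (-1.06 in Sm22mut and -1.05 in WT). Between untreated Sm22mut and untreated WT, 25 of the 81 were lower and 11 higher (30.9% and 13.6%, against 17.5% and 14.3% of all genes), with TFRC, the transferrin receptor, at -0.87 and TXNIP at 1.40. With TGFβ, 7 were lower and 4 higher in Sm22mut (8.64% and 4.94%, against 4.32% and 7.38%), with GLRX at -0.64 and TXNIP at 0.87. The interaction passed for 18 of the 81, 13 higher and 5 lower (16% and 6.17%, against 10.6% and 6.02%), with MAFF at 0.84 and GLRX at -0.74.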

How the data were processed

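The table deposited by the authors gives 1 signal per gene and library, a normalized count, for 12 A549 libraries. Per the submitters' processing notes, the tools were HISAT2, StringTie, featureCounts and DESeq2 and the build was GRCh38.p14. Versions, roles, annotation and strand setting were not given in the sources used here. Each library's values were whole multiples of 1 step, and division by it returned whole reads (100% of values, tolerance 0.01).

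The main test was limma 3.58.1 with trend in R 4.3.3 on log2(value + 1), in 1 fit of 4 group means, over 20456 genes that reached 10 in 3 or more of the 12 libraries. The 5 comparisons were two-sided, with Benjamini-Hochberg adjustment over all genes tested and a threshold of 0.05. The pseudocount shrinks the fold changes of low genes. After ± stand SE for log2 fold changes and SD for means (n = 3). The labels call the libraries biological repeats without naming separate cultures, so p-values measure the spread between these libraries. Alternatives were edgeR 4.0.16 and DESeq2 1.42.0 on the recovered reads, other pseudocounts, filters and scalings, a replicate block, separate fits per comparison and the omission of each library.

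The 36 members, the other lists and the markers were chosen with earlier results of these data known. Values per library are given for 12 core members and for up to 6 further called members per comparison, ranked by absolute log2 fold change, with a mean of at least 100. Genes of other lists are named from the 3 highest and 3 lowest called with TGFβ (2 each way elsewhere). Promoters and gene positions are from RefSeq on GRCh38.p14, and overlaps and coding sequences (longest open reading frame) from GENCODE 29. For each pair of genes, the transcripts most alike in coding length were compared. A planned comparison of AKR1C proteins was replaced by one of coding sequences.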

Additional observations from a re-analysis of the deposited data

Results flagged for a closer look

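The TGFβ response differed between Sm22mut and WT, by a test of the difference itself (the interaction term in limma, adjusted over all genes), for 9 of the 36 genes. Of these 7 had a higher value in Sm22mut and 2 a lower one, whereas 10.6% of all genes tested were higher and 6.02% lower. The log2 fold change with TGFβ in Sm22mut minus that in WT was 0.52 for NFE2L2, 0.33 for GSR, 0.91 for GPX2, 0.60 for PGD, 0.76 for TKT, 0.27 for ME1 and 0.48 for AKR1B10, whose value was 0.14 and not called with quantile normalization. It was -0.64 for SRXN1 and -0.55 for OSGIN1. The calls of GSR, ME1 and AKR1B10 were each lost when any of several single libraries was left out. TKT had opposite signs in the 2 lines (0.36 ± 0.08 in Sm22mut and -0.40 ± 0.08 in WT), while the other 8 fell in both.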

How the results depend on the processing

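In WT all 34 members called with TGFβ passed in every alternative, and in Sm22mut 31 of 33 passed whichever library was left out and 33 of 33 in the other 11 alternatives. For untreated Sm22mut against WT 13 of 20 passed whichever library was left out and 14 of 20 in the others; with TGFβ these were 5 and 3 of 8, and for the interaction 6 and 6 of 9. No called member changed sign. Leaving out single libraries gave 31 to 33 members for TGFβ in Sm22mut, 34 to 35 in WT, 14 to 21 untreated, 5 to 17 with TGFβ and 6 to 13 for the interaction. For Sm22mut against WT with TGFβ the count of all genes called (2394) ranged from 1386 to 3841 and was 1183 when the 6 treated libraries were fitted alone; the count of members was 13 with equal library totals and 3 in that separate fit. The causes were not tested, except that the separate fit had fewer samples.

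Deviations from the group mean correlated at -0.031 to 0.129 between same-numbered libraries and at -0.147 to 0.152 between differently numbered ones. With 3 libraries in each group, this cannot settle whether the numbers pair the samples, and the labels do not say. With the replicate block the interaction passed for 14 members against 9. Over the alternatives other than leaving out a library, the interaction passed for 2854 to 4219 of all genes, against 3395 in the main fit. The count of all genes with the block alone is not given here, so the gain is not shown to be particular to the members.

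Values near 0 that were not called changed sign. With equal library totals the log2 fold change in Sm22mut with TGFβ was -0.0289 for MAFG and -0.0705 for BACH1, that of AKR1B1 between the lines with TGFβ was -0.0146, and the interaction was -0.0536 for KEAP1, -0.0258 for TXNRD1 and -0.0119 for NQO1. With quantile normalization GSTM3 was at -0.173 for TGFβ in WT, AKR1B1 at -0.0169 between the lines with TGFβ, and the interaction at -0.0713 for KEAP1 and -0.0402 for TXNRD1. For TGFβ in Sm22mut BACH1 was at -0.0321 with TMM and -0.0328 with edgeR, and the interaction of KEAP1 at -0.0263 with TMM, -0.0278 with edgeR and -0.00411 with DESeq2. Leaving out single libraries gave -0.0246 to 0.0393 for BACH1 with TGFβ in Sm22mut and -0.0811 to 0.252 for GSTM3 in WT. Untreated, it gave -0.0724 to 0.0459 for AKR1C3 and -0.0486 to 0.0591 for UGDH. With TGFβ, it gave -0.214 to 0.0823 for TXN, -0.0452 to 0.124 for AKR1B1, -0.0746 to 0.0829 for AKR1C1, -0.298 to 0.139 for CBR3 and -0.22 to 0.0777 for NR0B1. For the interaction it gave -0.0658 to 0.0757 for KEAP1, -0.0826 to 0.214 for TXN, -0.234 to 0.00545 for FTL and -0.0446 to 0.12 for NQO1. GSTM3 and CBR3, the members with the lowest counts, had the largest standard errors.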

Other observations

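Genes of the NADPH oxidases, enzymes that draw on the NADPH that several members supply, moved in both directions with TGFβ. In Sm22mut 3 of 7 tested rose and 1 fell (42.9% and 14.3%, against 32.1% and 30.7% of all genes), and in WT 4 rose and 1 fell (57.1% and 14.3%, against 30.8% and 30.9%). NOX1, an epithelial oxidase, fell, with a log2 fold change of -4.36 in Sm22mut and -4.60 in WT. It averaged 93.3 ± 19.3 normalized counts in TGFβ-treated Sm22mut, 116 ± 29.5 in TGFβ-treated WT, 1913 ± 49.3 in untreated Sm22mut and 2767 ± 114 in untreated WT (SD, n = 3 each). The genes that rose averaged under 100 normalized counts over the 12 libraries and are named after their values were seen. They were NOX4, NOX5 and DUOX2 in both lines and DUOX1 in WT. NOX4 averaged 75.6 ± 5.02 in TGFβ-treated Sm22mut, 35.4 ± 2.94 in TGFβ-treated WT, 0.889 ± 0.827 in untreated Sm22mut and 0 in every library of untreated WT. DUOX2 averaged 138 ± 37.9 in TGFβ-treated Sm22mut, 84.5 ± 17.3 in TGFβ-treated WT, 3.44 ± 5.96 in untreated Sm22mut and 4.29 ± 2.3 in untreated WT (SD, n = 3 each).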
